A study of Mus musculus with 6 samples.

Results

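Matricellular proteins are secreted into the extracellular matrix without building its fibres; they bind matrix and cell surface receptors and alter adhesion, migration and growth factor signalling. Most are scarce in healthy adult tissue and are made in development and after injury, and in the kidney they are known from fibrosis and tubular damage. The genes examined here are Spp1 (osteopontin), Postn (periostin), Tnc (tenascin C), Sparc, the thrombospondins Thbs1 and Thbs2, and the CCN family genes Ctgf (now Ccn2), Cyr61 (Ccn1), Wisp1 (Ccn4) and Nov (Ccn3). They were taken by gene name from the array annotation: 10 genes of 28477 on the array, read by 15 probes of 41174 and by 24 of 43379 spots that are not controls.

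Tying 1 ureter (unilateral ureteral obstruction) blocks the outflow of the kidney above it and is widely used to model renal fibrosis. In 3 mice of the outbred CD-1 stock, numbered 495, 485 and 512, the left ureter was tied and the right kidney was left untied as the animal's own control, and each of the 6 kidneys was hybridised to 1 single-colour Agilent mouse array. The labels give kidney as the tissue but also name primary cells, and the age and sex of the mice and the time from ligation to sampling are not given in the sources used here. No untouched animal is among the samples, so the control kidney is one whose opposite kidney was obstructed.

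Levels below are signals in multiples of the 75th percentile of their own array, and values are listed in the mouse order 495, 485, 512 throughout; probes differ in brightness, so levels are compared within a gene. Log2 changes are ligated minus contralateral within the mouse, given as the mean ± SE of 3 pairs from limma with the mouse as a block, and a gene was called at a Benjamini-Hochberg adjusted p under 0.05 over all 19598 genes tested. A level in these bulk samples cannot tell more cells of a type from more RNA per cell. The arrays held 65.3% to 69.0% of probes well above background in contralateral kidneys and 71.6% to 74.2% in ligated kidneys. Markers of the proximal tubule (Slc34a1), the loop of Henle (Umod), the collecting duct (Aqp2) and podocytes (Nphs1) were above background on all 6 arrays. The contralateral kidney of mouse 512 stood apart: its 6 proximal tubule markers summed to 125, against 623 and 722 in the other contralateral kidneys and 46.3 to 87.7 in the ligated ones. Where leaving it out moved a member's fold by over 1.5 times or changed its call, the value without it is given.

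Most members tested were higher in the ligated kidney, and 0 were called lower by limma. Its 7 members at an unadjusted p under 0.05, beside 9833 of the 19598 genes tested, were the 7 called. The called genes were Tnc, Thbs2, Postn, Sparc, Wisp1, Thbs1 and Ctgf, 7 of the 9 members tested, beside 16.0% of all genes tested that were called higher, 14.7% called lower and 30.7% called in either direction. Spp1 and Cyr61 did not pass, and Nov was not well above background on any array and was not tested. The median log2 change of the 9 was 2.37, beside -0.01 over all genes tested. In 6 members every ligated kidney lay above every contralateral one (24.7% of all genes tested), and 7 were higher in all 3 mice (34.3%). Of those 7, 6 had their smallest difference in mouse 512, beside 62.6% of the genes higher in all 3 mice. The probes of Tnc and Postn passed the filter on dim probes through the ligated kidneys, so a rise was the likely outcome for them. Among the 7 members above background on all 6 arrays, 5 were called higher in the fit limited to such probes. In that fit 2448 of 17353 genes were called higher.

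**Figure D1:**
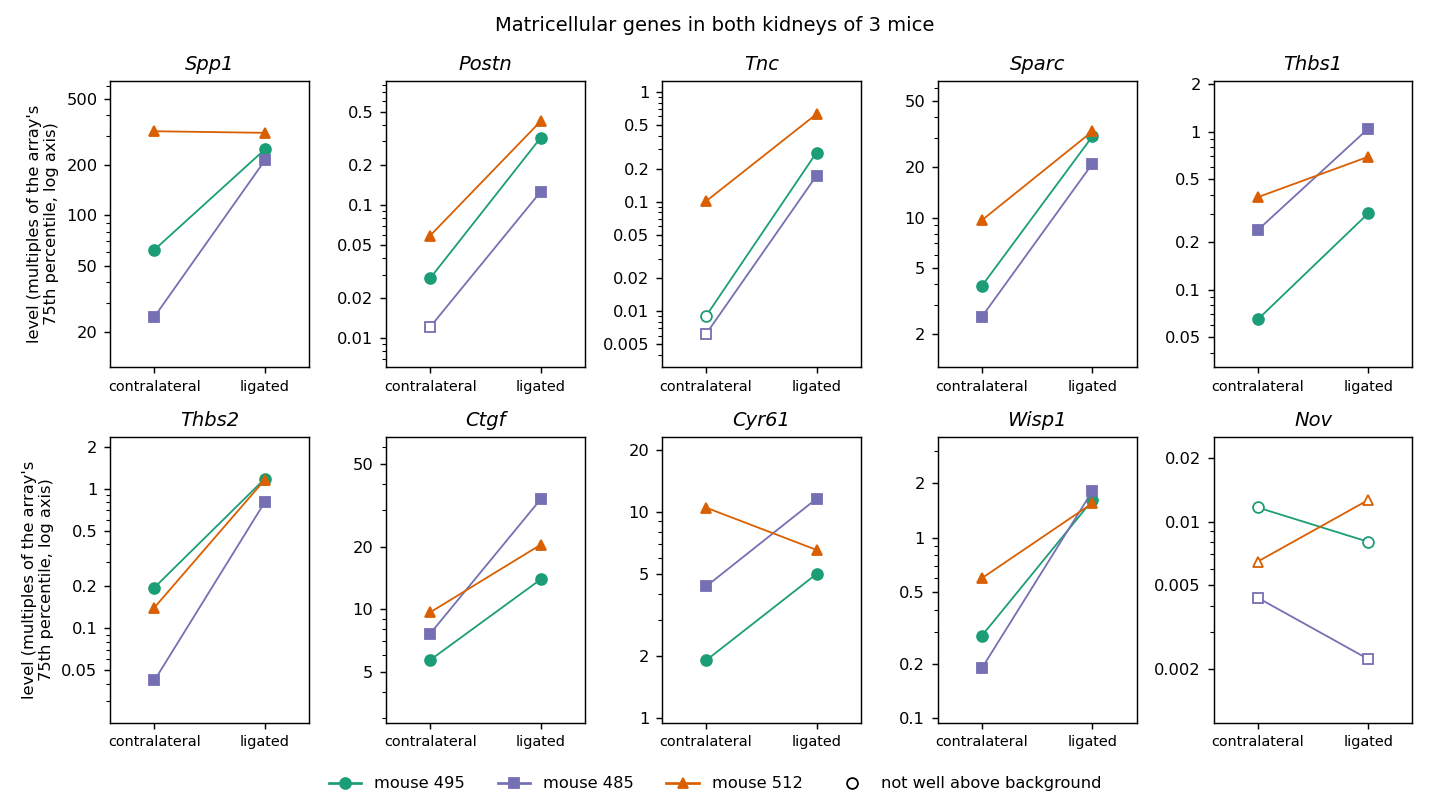
Level of each gene (log axis, multiples of the array's 75th percentile) in the contralateral and ligated kidney of 3 mice, with a line joining the kidneys of a mouse and open symbols for probes not well above background. Lines rise in all 3 mice for 7 genes, the line of mouse 512 is flat for Spp1 (320 and 313) and falls for Cyr61 (10.5 and 6.55), and every Nov point is open.

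Tenascin C is a large glycoprotein of embryonic and healing matrix that binds integrins, and its gene Tnc was dim in the contralateral kidneys. With the probe near the end of the transcript, its level was 0.00905, 0.0062 and 0.101 on the contralateral side and 0.281, 0.173 and 0.631 on the ligated side. All ligated kidneys lay above all contralateral ones, and only the contralateral kidney of mouse 512 was above background among the 3. The log2 change was 4.13 ± 0.54 (adjusted p = 0.0251, n = 3 pairs), which is at least 10.4-fold when contralateral values below the lowest measurable signal are raised to it. Normexp background correction was run with an offset of 50 added to every signal, which shrinks the changes of dim genes. With it the log2 change of Tnc was 1.70, still called but below those of Sparc, Thbs2, Wisp1 and Spp1 in that fit. Without the contralateral kidney of mouse 512, in an unpaired fit, it was 5.39, and without mouse 512 it was 4.88. Both values rest on contralateral levels that were all below background.

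Tnc is read by 3 probes, and they are shown because one of them ordered the ligated kidneys differently; each matches the minus strand of chromosome 4 in the mm8 build that the array uses. The probe starting at base 2324 of the RefSeq transcript spans 764 genomic bases with its 60 bases, so it crosses an exon junction (chr4:63499575-63500338):
Tnc base 2324: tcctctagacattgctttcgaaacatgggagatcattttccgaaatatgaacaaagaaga
The probe starting at base 6220 gave the gene its value above (chr4:63446146-63446191, an alignment of 46 bases):
Tnc base 6220: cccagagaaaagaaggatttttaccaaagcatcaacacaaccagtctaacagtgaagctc
The remaining probe was designed on a cDNA clone from newborn cerebellum and lies between the others in the genome (chr4:63471205-63471264):
Tnc clone: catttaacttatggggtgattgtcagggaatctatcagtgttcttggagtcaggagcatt

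On the ligated side, where all 3 probes were above background, the probe at base 2324 gave levels of 0.163, 0.103 and 0.397 and the clone probe 0.0282, 0.144 and 0.127. Mouse 495 thus lay above mouse 485 at both RefSeq positions and below it with the clone probe. On the contralateral side no Tnc probe was above background in mice 495 and 485, so their folds are lower bounds: at least 10.3-fold and 6.09-fold at base 2324, 17.8-fold and 10.2-fold at base 6220, and 1.78-fold and 8.52-fold with the clone probe. The groups of the clone probe overlapped, because the contralateral kidney of mouse 512 (0.0354) lay above the ligated kidney of mouse 495 (0.0282). A further probe that the array describes as tenascin C, under a transcript ID in place of the symbol, is not included. The members' 14 probes tested include several of Tnc, Sparc and Thbs1, so they are not separate results. Those of Tnc and Postn passed the filter through the ligated kidneys, so a rise was the likely outcome for them. Of the 14, 12 were called higher in a fit over all 29093 probes, beside 15.3% of those. In that fit the clone probe had a log2 change of 3.34 ± 0.75 (adjusted p = 0.0425) and the probe at base 2324 one of 3.84 ± 0.47 (adjusted p = 0.0241).

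**Figure D2:**
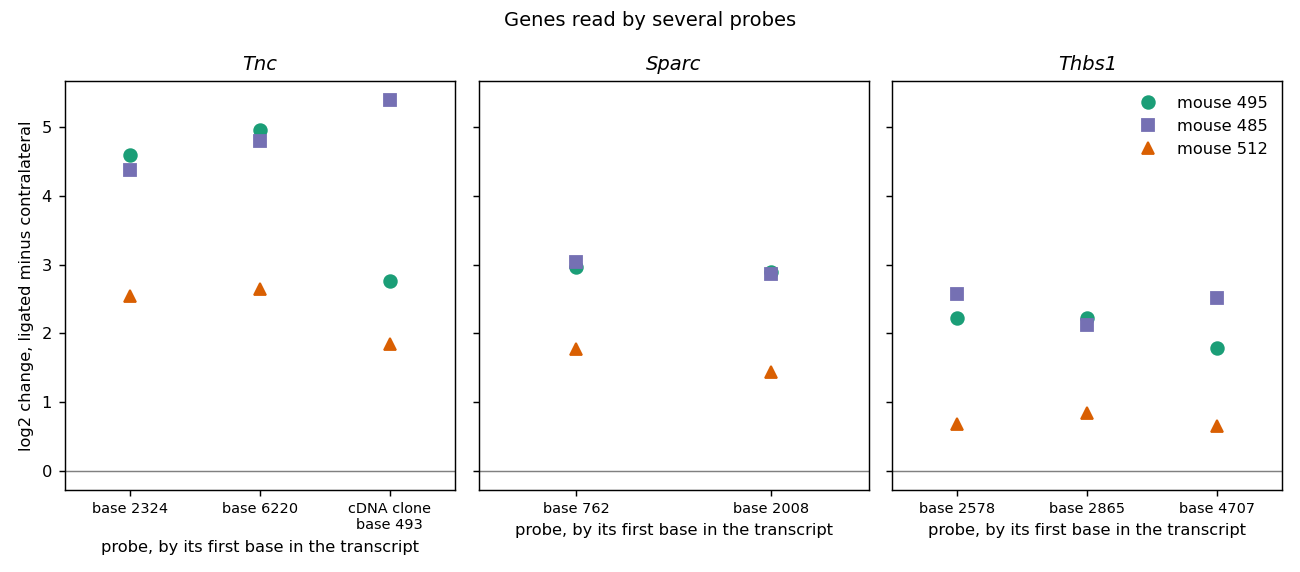
Log2 change within each mouse (vertical axis) for every probe of the 3 genes with several probes (horizontal axis, first base in the transcript or clone). The Sparc and Thbs1 probes give like values within a mouse, while the Tnc clone probe gives 2.77 in mouse 495 and 5.40 in mouse 485. The Tnc points of those mice rest on contralateral values not above background, so their sizes are not exact.

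Periostin, which binds integrins and helps in the cross-linking of collagen, is made by activated fibroblasts. The level of Postn was 0.0283, 0.0122 and 0.0591 on the contralateral side, and 0.320, 0.126 and 0.426 in the ligated kidneys. The groups did not overlap, and the ratio within the mouse was 11.3, at least 7.46 and 7.20. The log2 change was 3.24 ± 0.19 (adjusted p = 0.0221), or at least 8.47-fold since the contralateral probe of mouse 485 was not above background. With normexp the value was 1.53.

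Sparc binds collagen and calcium and takes part in the assembly of collagen fibrils. It is read by a probe across an exon junction that spans 2658 genomic bases on the minus strand (mm8, chr11:55239370-55242027), shown because it gave the gene its value:
Sparc base 762: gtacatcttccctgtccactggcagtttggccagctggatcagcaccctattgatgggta
Its level was 3.90, 2.55 and 9.64 on the contralateral side and 30.6, 21.0 and 32.8 in ligated kidneys. No ligated kidney overlapped a contralateral one. The log2 change was 2.59 ± 0.32 (6.03-fold, adjusted p = 0.0241), and the other probe, at base 2008, gave 2.40 ± 0.36 (adjusted p = 0.0273 over all probes).

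Thrombospondin 1 can activate latent TGF-beta and binds CD36 and CD47, while thrombospondin 2, its close relative, binds the same receptors and is not known to activate TGF-beta. Each is read by a probe across an exon junction, on the plus strand for Thbs1 (mm8, chr2:117812417-117812597) and the minus strand for Thbs2 (chr17:14404116-14405379). The Thbs1 probe shown is not the one that gave the gene its value. These probes start at different places in their transcripts, so their letters cannot tell how specific each is:
Thbs1 base 2578: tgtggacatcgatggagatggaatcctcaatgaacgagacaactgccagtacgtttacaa
Thbs2 base 3671: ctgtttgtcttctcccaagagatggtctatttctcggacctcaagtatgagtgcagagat
Thbs2 had a level of 0.196, 0.0424 and 0.141 on the contralateral side, and 1.18, 0.803 and 1.16 in ligated kidneys. Its groups were clear of each other, and its log2 change was 3.29 ± 0.37 (9.78-fold, adjusted p = 0.0233), or 2.45 with normexp. Thbs2 was also the only tested member whose contralateral level in mouse 512 was not the highest of the 3.

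Thbs1, by its brightest probe at base 2865, stood at 0.0649, 0.239 and 0.386 in contralateral kidneys and 0.305, 1.05 and 0.696 in ligated kidneys of the same mice. The groups overlapped, since the contralateral kidney of mouse 512 exceeded the ligated kidney of mouse 495, but each mouse showed a rise. The log2 change was 1.74 ± 0.34 (3.34-fold, adjusted p = 0.0354), and the other probes, at bases 2578 and 4707, gave 1.83 ± 0.43 and 1.66 ± 0.40 (adjusted p = 0.0449 and 0.0475 over all probes). The call rests on the pairing: without the mouse as a block the adjusted p was 0.123, and 0.110 with the slide as the block. In mouse 512 alone the rise was 1.80-fold, against 4.71-fold and 4.39-fold in mice 495 and 485.

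The CCN proteins share a modular build and bind integrins and heparan sulfate; Ctgf and Cyr61 are standard targets of TGF-beta and of the YAP and TEAD factors, and Wisp1 is induced by Wnt signalling. Ctgf, the connective tissue growth factor, had levels of 5.69, 7.62 and 9.65 on the contralateral side and 13.9, 33.8 and 20.4 in the ligated kidneys. The ligated kidneys were all above the contralateral ones, by a log2 change of 1.51 ± 0.27 (2.84-fold, adjusted p = 0.0322). Its contralateral levels spanned 0.76 on the log2 scale, the narrowest among the members tested.

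Wisp1 had levels of 0.287, 0.190 and 0.597 in contralateral kidneys and 1.61, 1.81 and 1.55 in ligated kidneys. The ligated kidneys were nearly level, with a span of 0.22 on the log2 scale, and all lay above the contralateral ones. The log2 change was 2.37 ± 0.41 (5.18-fold, adjusted p = 0.0313).

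Cyr61 differed between the mice. Its level was 1.91, 4.36 and 10.5 on the contralateral side and 5.01, 11.6 and 6.55 in the ligated kidneys. The ligated kidney was 2.62-fold and 2.67-fold higher in mice 495 and 485, and its level in mouse 512 was 0.624 times that of the contralateral kidney. The mean log2 change was 0.71 ± 0.51 (95% interval -0.69 to 2.11, adjusted p = 0.312), so neither no change nor a change as large as that of Ctgf lies outside the interval. Without mouse 512 it was 1.40 (adjusted p = 0.00466), and without the contralateral kidney of mouse 512 alone, in an unpaired fit, 1.33 (adjusted p = 0.0700).

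Nov, whose product often opposes that of Ctgf, had levels of 0.0117, 0.00436 and 0.00648 in contralateral kidneys and 0.00804, 0.00223 and 0.0127 in ligated kidneys. It was not well above background on any of the 6 arrays, where the dimmest probes that were had levels of 0.00863 to 0.0169. No fold is given for it.

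Osteopontin, the product of Spp1, is a phosphoprotein that binds alpha v integrins and CD44 and is made by injured tubule cells and macrophages. Its level was 62.3, 24.7 and 320 on the contralateral side, and 249, 214 and 313 in the ligated kidneys. The contralateral kidney of mouse 512 held the highest value of all 6, and the ligated kidneys were close to each other. Spp1 rests on 10 spots of 1 probe per array, whose SD was 0.039 to 0.132 on the log2 scale, while the contralateral kidneys spanned 3.70; the spots of the contralateral kidney of mouse 512 ran from 8.23 to 8.59 and those of the other contralateral kidneys from 4.55 to 6.00. The ratio within the mouse was 4.00, 8.69 and 0.977, and the mean log2 change 1.69 ± 0.66 (95% interval -0.13 to 3.52, adjusted p = 0.115). Without mouse 512 the value was 2.56 (adjusted p = 0.00753), and without its contralateral kidney alone, in an unpaired fit, 2.70 (adjusted p = 0.00457).

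**Figure D3:**
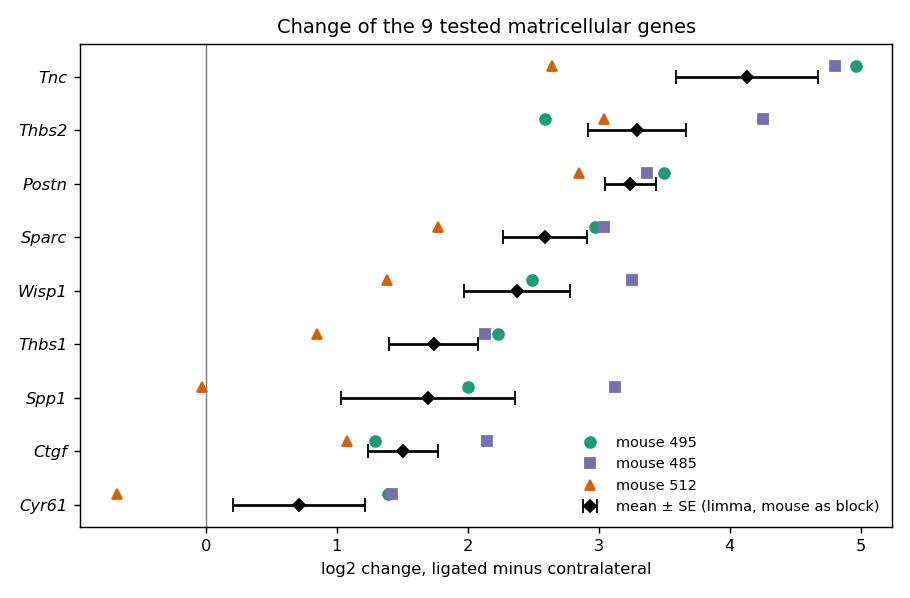
Log2 change of each tested gene as the mean ± SE of 3 pairs (diamonds) and in each mouse (coloured symbols). Mouse 512 has the smallest value for all genes except Thbs2 and lies below 0 for Spp1 and Cyr61.

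By fitted log2 change the members ran Tnc, Thbs2, Postn, Sparc, Wisp1, Thbs1, Spp1, Ctgf and Cyr61, but the places of Tnc and Postn rest on contralateral values below background. With normexp, whose offset shrinks the changes of dim genes, the order was Sparc, Thbs2, Wisp1, Spp1, Tnc, Ctgf, Postn, Thbs1 and Cyr61. Of the 8 neighbouring pairs in the first order, 2 had the same order in all 3 mice. Wisp1 changed more than Thbs1 by 0.64 ± 0.44 (SD, log2), and its value was also the larger under every alternative run. Postn changed more than Sparc by 0.65 ± 0.39, but less in mouse 485 once its dim contralateral value was raised to the measurable floor (-0.14), and less with normexp (1.53 and 2.59) and with quantile normalization (2.95 and 2.98). The other neighbours changed places in at least 1 mouse, and Tnc lay below Thbs2 in mouse 512. The changes in mice 495, 485 and 512 had medians of 2.49, 3.12 and 1.38 over the 9 members, or 2.49, 3.04 and 1.38 with dim values at that floor.

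Mouse 512 also shared no slide with the others: mice 495 and 485 were on slide 1 and mouse 512 on slide 2, so slide and mouse cannot be told apart for that animal. Of the 9 members, 8 were higher in its contralateral kidney than in both other contralateral kidneys, beside 39.4% of all genes tested. The excess over the mean of the other contralateral kidneys was 8.16-fold for Spp1, at least 6.18-fold for Tnc, 3.64-fold for Cyr61, at least 2.70-fold for Postn, 3.10-fold for Thbs1, 3.05-fold for Sparc, 2.56-fold for Wisp1 and 1.47-fold for Ctgf. For Spp1 and Cyr61 that kidney lay above the mean of the ligated kidneys of mice 495 and 485, by 0.47 and 0.46 on the log2 scale, and for the other members tested it lay below it.

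The calls depended on which mice entered the fit. Without mouse 495 or without mouse 485, limma called 0 members and 0 of all genes. Of the 9 members 7 had an unadjusted p under 0.05 in each fit, beside 4949 and 4952 of the 19598 genes. The log2 changes of the 7 ran from 1.49 (Thbs1) to 3.72 (Tnc) without mouse 495, and from 1.18 (Ctgf) to 3.80 (Tnc) without mouse 485. Without mouse 512, 9 of 9 members were called higher, beside 5358 of 19598 genes. Without its contralateral kidney alone, in the unpaired fit, 8 of 9 were called higher, Cyr61 being the exception, beside 5158 genes.

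Markers of several cell types moved with the members, and their part in these results was not tested. In this and the following lists, genes counted as having risen or fallen are called genes. Over all genes tested 16.0% were called higher and 14.7% lower. The 8 fibroblast and myofibroblast markers summed to 14.3 to 69.8 in contralateral kidneys, with mouse 512 highest. In ligated kidneys they summed to 133 to 264. Col1a1, Col1a2 and Col3a1 made up 13.1, 25.8 and 10.8 of the 69.8 in mouse 512. The defining marker Pdgfra stood at 0.376, 0.188 and 0.367 in contralateral kidneys. Of the 8 markers 7 rose, among them Col1a1 (3.86 ± 0.91), Col3a1 (3.75 ± 0.82) and Thy1 (3.41 ± 0.33). The myofibroblast marker Acta2 (0.30 ± 0.15) did not pass. Of the 6 macrophage markers 5 rose, among them Mrc1 (3.61 ± 0.58) and Adgre1 (3.42 ± 0.48), and the list summed to 5.02, 4.86 and 46.6 on the contralateral side and to 38.5 to 42.2 in ligated kidneys. Cd14 alone made up 41.8 of the 46.6. Without it the sums were 2.96, 3.05 and 4.75, against 16.1 to 18.4 in ligated kidneys.

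Of the 6 proximal tubule markers 5 fell, among them Slc22a8 (-4.10 ± 0.93), Slc22a6 (-3.60 ± 0.79) and Cubn (-2.25 ± 0.38). Platelet markers, given because platelets store thrombospondin 1, had 1 of 4 tested members higher, Pf4 (2.84 ± 0.58). Their summed level of 0.685 to 1.43 in contralateral and 3.23 to 5.93 in ligated kidneys was mostly Pf4 on the ligated side (5.51, 3.45 and 3.00), while Itga2b stood at -1.09 ± 0.39, Gp9 at 0.32 ± 0.32 and Ppbp at 0.51 ± 0.25. Of 4 smooth muscle markers Tagln rose (1.19 ± 0.17), and the defining marker Myh11 had a value of 0.03 ± 0.43. T cell markers had 3 of 4 members higher, Cd2 among them through the ligated kidneys, with the largest value for Cd3g (3.09 ± 0.25), while Cd3e stood at 0.46 ± 0.25. Of the remaining lists, 3 of 5 endothelial markers (Pecam1, Cdh5 and Emcn) and 2 of 5 podocyte markers (Synpo and Wt1, not Nphs1) rose. Of 4 loop and distal tubule markers Slc12a3 fell, and of 4 collecting duct markers Aqp2, Aqp3 and Scnn1g fell.

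**Figure D4:**
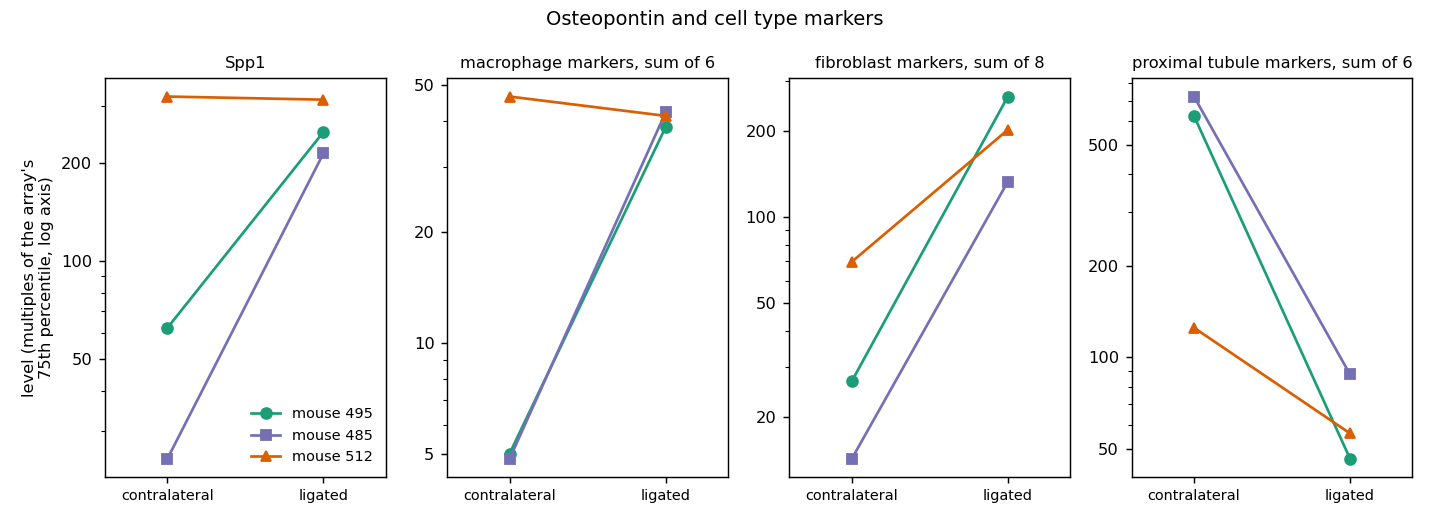
Level of Spp1 and summed levels of macrophage, fibroblast and proximal tubule markers (log axes, multiples of the array's 75th percentile) in the contralateral and ligated kidney of each mouse. In mouse 512 the contralateral kidney has high Spp1 (320) and a macrophage sum of 46.6 that is mostly Cd14. Its fibroblast sum of 69.8 is mostly Col1a1, Col1a2 and Col3a1, and its proximal tubule sum is 125.

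Receptors of the matricellular proteins changed in both directions. Of 23 integrins and other receptors, 11 rose and 2 fell, beside 16.0% and 14.7% of all genes tested. The median log2 change of the 23 was 1.09. Among the 11, Itga2 passed the filter through the ligated kidneys. The hyaluronan and osteopontin receptor Cd44 rose most (17.3-fold, 4.12 ± 1.01, adjusted p = 0.0489). Its level was 0.174, 0.218 and 3.04 on the contralateral side and 10.1, 7.97 and 7.45 in the ligated kidneys, so the contralateral kidney of mouse 512 stood between. Itgam, the alpha chain of a leukocyte integrin and also counted above as a macrophage marker, rose 8.78-fold (3.13 ± 0.67).

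The thrombospondin receptor Cd36, a fatty acid transporter of tubules and endothelium, fell 5.93-fold (-2.57 ± 0.20, adjusted p = 0.0221), from 18.5, 25.1 and 9.21 in contralateral kidneys to 2.39, 4.45 and 1.93 in ligated kidneys. Every ligated value of Cd36 was below every contralateral one. Cd47, also named above as bound by the thrombospondins, had a value of 0.19 ± 0.16 and did not pass. Other binding partners in this list rose, among them Lrp1 (2.23 ± 0.23) and Cacna2d1 (2.12 ± 0.20), both named after their values were seen. Sdc4, a heparan sulfate proteoglycan chosen after its value was seen, was the other receptor gene that fell (-0.71 ± 0.15). The integrin chains Itgav and Itgb1, which most of these proteins can bind, stood at 0.55 ± 0.20 and 0.20 ± 0.17 and did not pass.

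**Figure D5:**
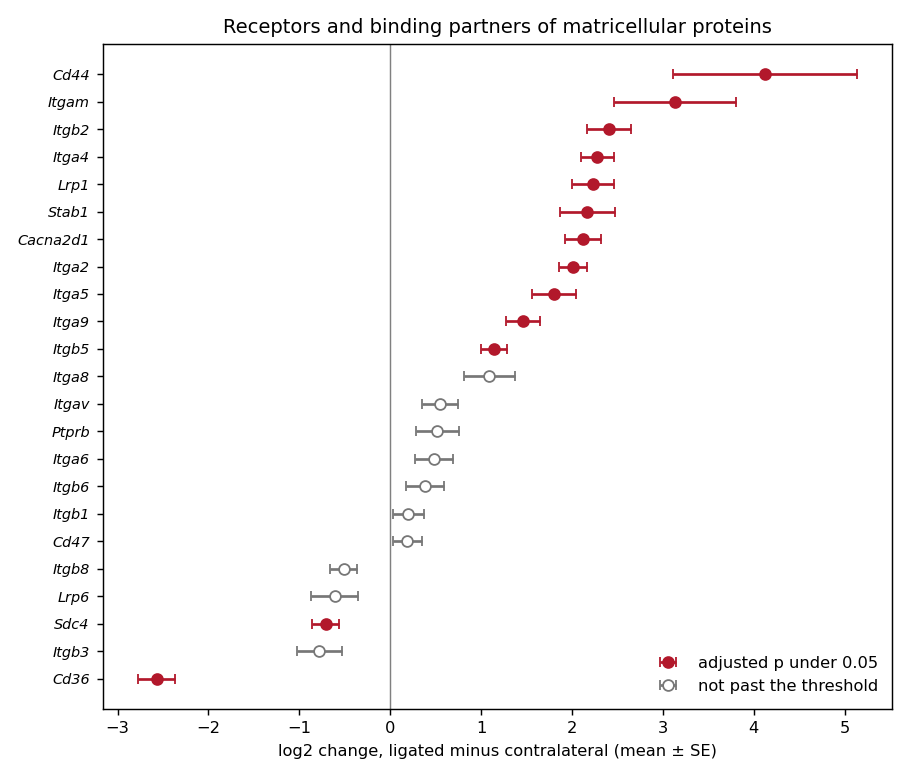
Log2 change (mean ± SE of 3 pairs) of 23 receptors and binding partners, filled where the adjusted p is under 0.05. Cd44 is highest at 4.12, Cd36 lowest at -2.57, and 10 genes, Itgav and Itgb1 among them, are open symbols.

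Relatives of the members behaved in a like mix. Of 20 other matricellular and related genes 13 were tested, of which 7 rose and 1 fell, at a median of 1.86; 2 of the 7, Spock2 and Wisp2 (now Ccn5), passed the filter through the ligated kidneys. The largest fitted values among the called genes were those of Smoc2 (12.4-fold, 3.63 ± 0.37), a Sparc relative, Spock2 (at least 5.01-fold, 2.80 ± 0.55), a testican proteoglycan, and Fstl1 (5.60-fold, 2.49 ± 0.41). Smoc1, named after its value was seen, fell (-1.87 ± 0.24), opposite in direction to its close relative Smoc2. Thbs4 had a value of 2.87 ± 1.08 that did not pass, with changes of 0.49, 2.43 and 5.70 in mice 495, 485 and 512.

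Proteases that can cut matricellular proteins had 8 of 14 tested members higher and 1 lower, at a median of 2.97, or 2.83 with dim genes at their bound. Of the 8, Mmp3, Mmp7, Mmp9 and Mmp12 (4 genes) were not above background on all contralateral arrays and passed the filter through the ligated kidneys, so a rise was the likely outcome for them. The largest fitted values, whose order is not that of the bounds, were those of the macrophage elastase Mmp12 (at least 11.5-fold, 4.89 ± 0.56), Mmp7 (at least 22.6-fold, 4.50 ± 0.82), which cleaves osteopontin, and Mmp3 (at least 16.2-fold, 4.48 ± 0.98). Htra1, a serine protease named after its value was seen, was the gene that fell (-1.43 ± 0.18). Bmp1, known to process periostin and other matrix proteins, stood at 2.61 ± 0.69 (adjusted p = 0.0558).

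Of 21 transcription factors and coactivators that can act on these genes, 7 rose and 0 fell (limma; median 0.72). Tead2 rose 7.16-fold (2.84 ± 0.46), the mesenchymal factor Prrx1 5.98-fold (2.58 ± 0.45) and Runx2, a regulator of Spp1 in bone, 4.42-fold (2.14 ± 0.22). The coactivators Yap1 and Wwtr1 had values of -0.27 ± 0.14 and -0.10 ± 0.15 and did not pass. Among 16 other YAP and TEAD target genes tested, 6 rose and 0 fell, at a median of 0.57, with Axl (6.88-fold), Tgfb2 (4.61-fold) and Rbms3 (4.22-fold) foremost. Ankrd1, a standard target, had a value of 2.88 ± 0.87 (adjusted p = 0.0704), with changes of 4.17, 4.03 and 0.44 in mice 495, 485 and 512.

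The genes nearest to each member in profile were found by the root mean square difference of log2 values over the 6 arrays, each gene centred on its mean. With 6 arrays in 2 groups such likeness is a description and says nothing of shared function or control, and for Tnc and Postn it includes values below background. Nearest to Spp1 were Pla2g5 (0.132) and Cdca7 (0.163), and the nearest other member, Sparc, was at 0.691. Nearest to Thbs1 were the AP-1 genes Fosl2 (0.306) and Junb (0.316), and nearest to Cyr61 were Gdf15 (0.246) and Dusp8 (0.274). Postn lay nearest to Slc37a2 (0.249) and Thy1 (0.277), Tnc to Ltbp2 (0.352), and Thbs2 to Cd247 (0.263) and Twist2 (0.276). Nearest to Sparc were A930018M24Rik (0.091) and Epsti1 (0.094), to Wisp1 Sfmbt2 (0.114) and Sync (0.118), and to Ctgf Zc3h12a (0.141) and BC051142 (0.143). Among the members, Sparc and Wisp1 were the closest pair (0.300), and Thbs1 was nearest to both Ctgf (0.599) and Cyr61 (0.606).

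Promoter windows from 250 bases before to 50 after the gene start, from RefSeq on GRCm38, were at hand for 6 members, 9 windows in all; Thbs1, Ctgf, Wisp1 and Nov had none. They were searched on both strands for GGAATG, the letters bound by TEAD factors, for the AP-1 letters TGANTCA and for the CArG box of SRF. Cyr61 alone held a match, 1 GGAATG on the reverse strand at position -103 from the gene start, which is shown in capitals because Cyr61 is a standard TEAD target (chr3:145649936-145650235, minus strand):
Cyr61 promoter: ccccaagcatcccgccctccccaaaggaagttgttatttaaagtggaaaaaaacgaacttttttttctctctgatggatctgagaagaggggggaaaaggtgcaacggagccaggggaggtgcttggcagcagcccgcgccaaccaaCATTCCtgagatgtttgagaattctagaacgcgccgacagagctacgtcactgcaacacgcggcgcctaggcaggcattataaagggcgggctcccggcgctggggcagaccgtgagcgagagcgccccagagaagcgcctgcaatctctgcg
Of all 32851 windows in that table, 14.7% held GGAATG, 7.81% the AP-1 letters and 1.63% a CArG box. A match is a description of these letters and not of binding.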

How the data were processed

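The files the authors deposited are scanner tables, and the signal used from them is an intensity on a linear scale, background-subtracted and detrended within the array by Agilent Feature Extraction 10.5.1.1, per the file headers (the submitters' processing notes name version 9.1). The deposited value table is a ratio that equalled the processed signal over the array median (columns have a median of 1), and it served as an alternative. Control spots and spots with outlier flags were left out, log2 signals were taken minus the array's 75th percentile, and spots of a probe were averaged. Well-above-background flags are deposited values of 0 or 1; no spot was saturated (0). Of 41174 probes, 24367 took a current symbol by accession from a RefSeq table of another build, used for names. Probes above background (at least 0.5 of spots) on all 3 arrays of a group were kept, and the brightest stood for its gene.

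Tests used limma 3.58.1 in R 4.3.3 (two-sided), blocking on the mouse, with 2 residual and 2.06 prior degrees of freedom; p-values measure the spread between 3 animals. Pairs were set by the labels' mouse numbers, and kidneys of a mouse deviated together (r = 0.194, 0.481 and 0.271). On simulated data for this comparison over 19598 genes, 109 of 109 genes changed by 3 on the log2 scale and 56 of 91 changed by 1.5 were called, with 9 false calls. The simulation changed 200 genes, drew spreads around that of the median gene and held no outlying kidney. The members' median SD in contralateral kidneys was 1.16, beside 0.35 over all genes, so these shares of calls do not carry over to the members. An "at least" fold raises the dimmer group's value on each array to the lowest signal measured above background there. The number of arrays limits the precision.

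Members and gene lists were chosen with earlier results of these data known. Named were all members and, from each list, the 3 called genes with the largest change, or the one with the smallest p; other genes were chosen after their values were seen.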

Additional observations from a re-analysis of the deposited data

How the results depend on the processing

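The 7 calls among the members remained 7 under normexp, quantile normalization, centring on the array median, centring on spike-in spots, the mean of probes and an intensity trend. The deposited value table, a ratio to the array median, gave the same values as centring on that median and is not a separate check. No member changed direction in any alternative run. With no replicate block, or with the slide as the block, 6 members were called and Thbs1 was lost; with no filter 5 were called, without Thbs1 (adjusted p = 0.0532) and Ctgf (0.0504). Leaving out each mouse in turn gave 0 to 9 members higher and 0 to 11022 genes called, against 6019 with all mice. The count of genes was 5538 in the unpaired fit, 3040 with spike-in centring, 2662 with no filter and 11034 without the contralateral kidney of mouse 512. Higher calls were 52.1% of all calls, 30.1% with centring on the median, 77.7% with spike-in centring and 41.7% with normexp, and the median change of all genes moved from -0.01 to -0.32, 0.26 and -0.18. The depth of signal limits Nov, and Tnc and Postn in contralateral kidneys.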
